A study of Mus musculus with 6 samples.

Results

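The 10 genes described here, Ifit1, Ifit2, Ifit3, Ifit3b, Isg15, Rsad2, Usp18, Ifi44, Zbp1 and Bst2, are classical effectors of the type I interferon response. They were taken by gene symbol from a table of 24520 Ensembl gene identifiers, and all 10 were found. The values come from endothelial cells, the cells that line blood and lymph vessels, isolated by FACS from lungs of mice with the genotype wt (wild type). The 3 libraries labelled Aged came from mice aged 18 months and the 3 labelled mAdu from mice aged 8 months. No treatment, allele or transgene other than wild type is given, and both ages share the tissue, the sort and the library kit. Whether libraries of the same age stem from different mice is not stated, so the p-values measure a spread between libraries that could be technical. The values are TPM, transcript abundance per length relative to the sum over a library, so levels of different genes can be set side by side.

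Type I interferons bind the receptor IFNAR1 and IFNAR2 on nearly every cell type. Kinases at the receptor then activate the transcription factor complex ISGF3, which binds the interferon-stimulated response element (ISRE) in the promoters of its target genes. Interferon gamma acts instead through the gamma-activated site (GAS), and the target genes of both pathways overlap. The products of the 10 genes act at different steps of antiviral defence. IFIT1, IFIT2 and IFIT3 bind foreign RNA or each other, RSAD2 (viperin) makes a nucleotide that stops viral polymerases, BST2 (tetherin) holds budding virus at the cell surface, and ZBP1 senses Z-form nucleic acid and can start necroptosis. ISG15 is a ubiquitin-like protein that is joined to other proteins, and USP18 removes it and also dampens signalling at the receptor. IFI44 is an interferon-induced protein of less settled function.

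The promoter sequences are shown because ISGF3 acts there and because the 10 genes tended to lie high or low in the same libraries. RefSeq promoter windows on GRCm38.p6, each from 250 bases before to 50 bases after a start site, were present for 8 of the 10 genes, with 2 windows for Ifit2. The ISRE core was searched as 2 copies of GAAA separated by any 2 bases (TTTC in place of GAAA when read from the other strand), on both strands, with overlapping matches counted separately. It occurred in the windows of 6 of the 8 genes, against 3.44% of all 32851 windows and 3.99% of the 27025 genes with a window. The GAS core TTCNNNGAA, which reads the same on both strands, occurred in 2 of the 8, Bst2 and the first window of Ifit2, against 8.30% of all windows and 9.55% of the genes with a window. A match is a description of the letters and not a measured binding site. The stretches below run from 200 to 21 bases before the RefSeq start, 5′ to 3′ along the gene's strand, and capitals mark the ISRE core matches. They are Isg15 at chr4:156200839-156201018 (minus strand), Bst2 at chr8:71537493-71537672 (minus), Rsad2 at chr12:26456473-26456652 (minus), Ifit1 at chr19:34640689-34640868 (plus), Ifit3 at chr19:34583329-34583508 (plus) and Ifit3b at chr19:34607757-34607936 (plus).
Isg15: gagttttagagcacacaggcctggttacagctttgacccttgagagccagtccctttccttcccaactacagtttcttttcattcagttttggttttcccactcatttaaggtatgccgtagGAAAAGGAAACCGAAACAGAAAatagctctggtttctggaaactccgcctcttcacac
Bst2: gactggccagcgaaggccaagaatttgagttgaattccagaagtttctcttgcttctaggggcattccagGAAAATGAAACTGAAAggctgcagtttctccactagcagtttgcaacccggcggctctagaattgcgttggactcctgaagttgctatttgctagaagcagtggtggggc
Rsad2: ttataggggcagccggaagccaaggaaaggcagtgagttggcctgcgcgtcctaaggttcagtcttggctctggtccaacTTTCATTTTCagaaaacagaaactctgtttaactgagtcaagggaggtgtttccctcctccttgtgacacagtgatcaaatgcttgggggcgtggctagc
Ifit1: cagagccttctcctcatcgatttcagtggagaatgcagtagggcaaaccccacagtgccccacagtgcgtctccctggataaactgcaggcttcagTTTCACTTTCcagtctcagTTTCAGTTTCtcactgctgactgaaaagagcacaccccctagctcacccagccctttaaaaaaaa
Ifit3: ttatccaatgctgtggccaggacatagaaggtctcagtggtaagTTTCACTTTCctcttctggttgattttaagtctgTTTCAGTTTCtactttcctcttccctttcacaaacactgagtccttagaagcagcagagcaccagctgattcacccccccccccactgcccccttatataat
Ifit3b: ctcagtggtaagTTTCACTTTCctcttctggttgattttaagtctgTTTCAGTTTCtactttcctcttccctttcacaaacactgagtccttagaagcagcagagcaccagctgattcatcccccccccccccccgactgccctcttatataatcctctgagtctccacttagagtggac

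In Isg15, 3 overlapping matches fill 22 bases. In Bst2, 2 overlapping matches fill 16 bases, and the GAS core overlaps the start of the first. Ifit1, Ifit3 and Ifit3b each hold 2 separate matches on the opposite strand. The Ifit3 and Ifit3b stretches share an unbroken run of 119 bases that holds both matches. Rsad2 holds 1 match, also on the opposite strand, at positions -120 to -111 from its start.

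**Figure D1:**
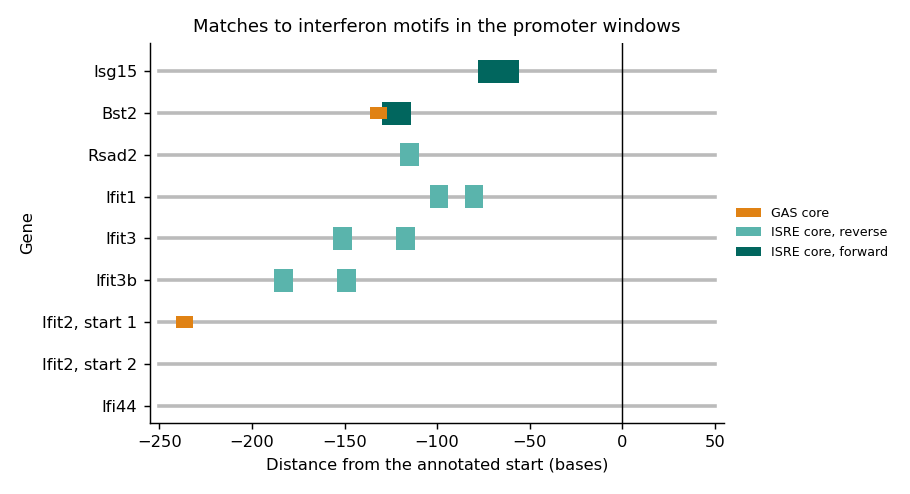
Position of ISRE core and GAS core matches in the 9 RefSeq promoter windows of 8 genes, in bases from the annotated start (vertical line), with grey bars for the 300 bases searched. All ISRE core matches lie between positions -188 and -57, and Ifi44 and the second window of Ifit2 hold neither motif.

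None of the 10 effector genes passed the test for a difference between the ages (0 higher, 0 lower), and 0.0235% of the 12748 tested genes did (limma's moderated test on log2(TPM + 1), Benjamini-Hochberg adjusted p under 0.05). Of the 10, 9 had a log2 difference above 0, as did 33.8% of all tested genes, and their median difference was 0.19 against -0.079 over all tested genes. Zbp1 and Rsad2 had the highest differences, at 1.01 and 0.92. Their mean TPM, averaged without the log, was 2.16-fold and 2.03-fold higher at 18 months. Usp18, Bst2, Ifi44 and Ifit1 had the values nearest to 0, from -0.026 to 0.084. At an unadjusted p under 0.05, 3 of the 10 were higher (Zbp1, Rsad2 and Ifit2) and 0 were lower, against 3.45% and 9.99% of all tested genes. The background depended on the scaling. There were 440 higher and 1274 lower genes in TPM as deposited, 740 and 895 with median-of-ratios scaling, 751 and 979 with quantile normalization, and 862 and 740 after a correction for GC content and length. In 1 of the 10, Zbp1, all 18-month libraries lay above all 8-month libraries, as in 4.48% of tested genes, and in 0 they lay below, as in 14.2%.

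In all 6 libraries the cells carried endothelial markers, with Cdh5 (VE-cadherin) between 653 and 926 TPM and Egfl7 between 4454 and 5833 TPM. The 12 endothelial markers summed to between 15135 and 16513 TPM at 18 months and to between 16942 and 18287 TPM at 8 months, so the sums did not overlap. Of the 12, 0 passed the adjusted threshold, as did 0.0235% of all tested genes, and 1 had a log2 difference above 0, as did 33.8%. The ages were separate in 4 with 18 months lower and in 0 with 18 months higher, where 14.2% and 4.48% of all tested genes were. Transcripts of other cells were present, and the third 8-month library had the highest summed level of leukocyte, macrophage, lymphocyte and epithelial markers. The 6 pan-leukocyte markers summed to between 39.0 and 71.9 TPM at 18 months and to between 23.0 and 89.0 TPM at 8 months, with the third library at 89.0 and highest of all 6 in 5 of the 6 markers. The 20 monocyte and macrophage markers summed to between 1055 and 1943 TPM and to between 763 and 1960 TPM, and the 14 lymphocyte markers to between 29.9 and 41.6 TPM and to between 26.5 and 79.1 TPM, at 18 and 8 months. Most of the macrophage sum was Lyz2, at 568.0 to 1542 TPM. The third 8-month library was highest of all 6 in 10 of the 20 macrophage markers. The 10 epithelial markers summed to between 9511 and 19354 TPM and to between 11017 and 20202 TPM, and the third 8-month library was highest of all 6 in 6 of them. Sftpc was highest there, at 11881 TPM, whereas Scgb1a1 was highest in the first 18-month library, at 12297 against 7384 TPM. The 15 dendritic cell markers summed to between 263 and 294 TPM and to between 255.7 and 302 TPM. Most of that sum was Tcf4 (153.6 to 187.1 TPM), Clec9a (33.3 to 60.8 TPM) and Zbtb46 (29.0 to 46.7 TPM). Each other marker of the list stayed at or under 14.04 TPM, the highest value of Ly6d, and Xcr1 and Flt3 at or under 1.26 TPM. How much of the sum stems from dendritic cells was not tested. Siglech, which defines plasmacytoid dendritic cells, lay between 0.30 and 0.73 TPM. The 8 neutrophil markers summed to between 15.3 and 18.6 TPM and to between 12.8 and 15.96 TPM, and the 10 mesenchymal markers to between 18.3 and 22.4 TPM and to between 33.5 and 49.8 TPM. Most of the neutrophil sum was Cxcr2, at 10.2 to 14.2 TPM. The neutrophil marker Ly6g was listed at 0 in all libraries, and Csf1r was listed at 0 or near it in all but the first 18-month library. The part of these cells in the values below was not tested. In bulk RNA, fewer cells of a type and less RNA per cell cannot be told apart.

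Among the 10 genes, Bst2 was highest, at 700.1 ± 77.0 TPM (SD over 6 libraries), above 98.7% of tested genes, and Rsad2 was lowest, at 10.5 ± 5.49 TPM, above 41.3%. Between them, in falling order of mean TPM, came Usp18 (138.8), Ifit3 (88.8), Isg15 (81.5), Ifit1 (56.3), Ifit3b (30.1), Zbp1 (27.6), Ifi44 (23.9) and Ifit2 (15.0). Bst2 did not overlap with Usp18, nor Ifit1 with Ifit3b, over the 6 libraries. The ranges of all other neighbours in this order overlapped. Within libraries, Usp18 lay above Ifit3, Isg15 above Ifit1 and Ifi44 above Ifit2 in 6 of 6, whereas Zbp1 lay above Ifi44 in 3 of 6.

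**Figure D2:**
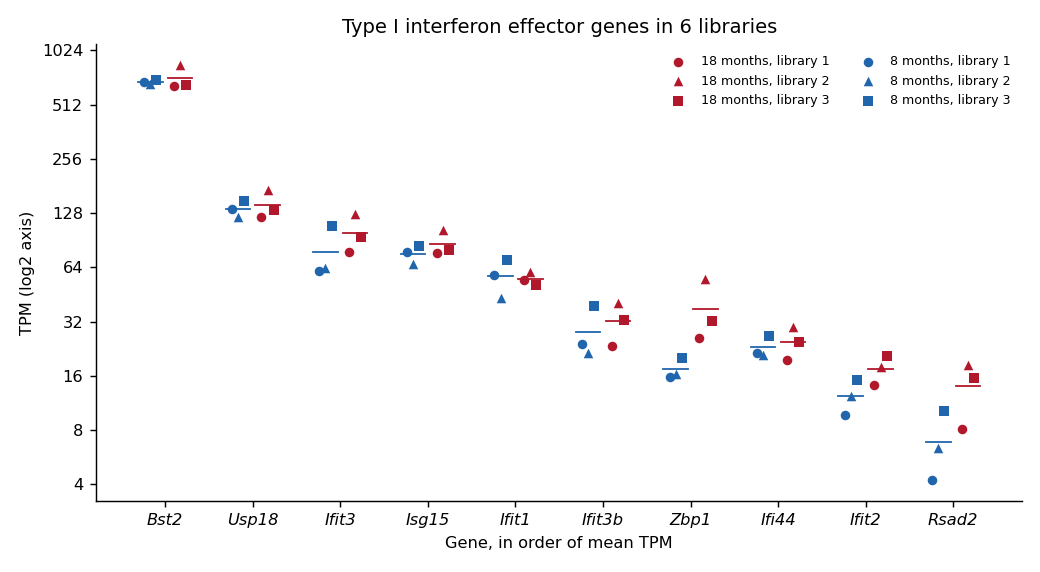
TPM of each gene in each library on a log2 axis, with blue for 8 months, red for 18 months, symbol shape for the library number and a short line for the mean of each age. Zbp1 is the gene in which the ages are separate, and the red triangle, the second 18-month library, is the highest point in 8 of the 10 genes.

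Zbp1 (chromosome 2, 173206612 to 173218923, GRCm38, minus strand), the sensor of Z-form nucleic acid, had 25.9, 55.3 and 32.1 TPM in libraries 1, 2 and 3 at 18 months, compared with 15.8, 16.3 and 20.2 TPM in those at 8 months. Values below follow this order. The ages did not overlap, and the second 18-month library, at 55.3 TPM, stood well above the first and the third. The log2 difference was 1.01 with an SE of 0.26 and a 95% interval from 0.41 to 1.61 (limma adjusted p = 0.19). Without the second 18-month library it was 0.70, with an interval from 0.31 to 1.09 (limma adjusted p = 0.33). Over 19 alternatives it stayed between 0.70 and 1.23, with a limma adjusted p between 0.074 and 0.36. Transcripts of proteins known to act with ZBP1 in cell death were measured too. Of the 5 genes (Ripk1, Ripk3, Mlkl, Casp8 and Fadd), 0 rose and 0 fell. Their median log2 difference was -0.040 and ran from -0.11 to 0.047 over the alternatives, with the positive values under other scalings or the GC and length correction. The kinase gene Ripk3 averaged 61.6 ± 3.21 TPM (SD, n = 3) in the older and 69.1 ± 6.26 TPM in the younger libraries, with no overlap (limma adjusted p = 0.55). It was the 1 gene of these 5 with separate ages and 18 months lower, where 14.2% of all tested genes were. Mlkl, the executioner of necroptosis, averaged 42.9 ± 2.42 against 41.8 ± 4.54 TPM.

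Rsad2 (chromosome 12, 26442746 to 26456452, minus strand) had 8.12, 18.4 and 15.5 TPM in the older libraries, against 4.23, 6.35 and 10.2 TPM in the younger. The first 18-month library lay below the third 8-month library, so the ages overlapped. The log2 difference was 0.92 with an SE of 0.35 (95% interval 0.11 to 1.73, limma adjusted p = 0.32). Leaving out the second 18-month library gave 0.70, with an interval from -0.20 to 1.61. Cmpk2, the neighbour and partner of Rsad2 in nucleotide metabolism, was among the other interferon-stimulated genes and lay between 16.9 and 23.4 TPM. Its log2 difference was -0.077 (limma adjusted p = 0.87), with the third 8-month library the highest.

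The Ifit genes lie side by side on chromosome 19 in the order Ifit2 (34550694 to 34576419), Ifit3 (34583531 to 34588731), Ifit3b (34607970 to 34613401) and Ifit1 (34640871 to 34650009), all on the plus strand. Ifit2, whose product binds AU-rich double-stranded RNA, measured 14.2, 17.9 and 20.5 TPM (18 months) against 9.74, 12.4 and 15.1 TPM (8 months). Here the third 18-month library was highest, and only the first lay below an 8-month library, the third. Its log2 difference was 0.47 with an SE of 0.19 (95% interval 0.024 to 0.92, limma adjusted p = 0.34) and was nearly the same, 0.45, without the second 18-month library, where the interval reached from -0.10 to 1.002.

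Ifit3 had 77.5, 127.3 and 94.4 TPM in the 18-month set, while the 8-month set gave 61.3, 63.7 and 108.6 TPM. For its near copy Ifit3b the same sets gave 23.4, 40.6 and 32.5 TPM, then 24.03, 21.4 and 38.9 TPM. In both, the second 18-month and the third 8-month library were the highest of their age. Of the 31-base sequences in the Ifit3 transcript, 61.8% also occur in Ifit3b, so the split of reads between the pair is uncertain. Their sum depends on that split only through the transcript lengths, 1745 bases for Ifit3 and 2000 for Ifit3b, by which TPM are scaled. The sum came to 100.9, 168.0 and 126.9 TPM for the older cells, versus 85.3, 85.1 and 147.4 TPM for the younger. Ifit3 made up 71.8% to 76.8% of the sum in each library. The log2 difference was 0.37 (95% interval -0.21 to 0.96) for Ifit3 and 0.20 (-0.40 to 0.80) for Ifit3b (limma adjusted p = 0.57 and 0.80). Leaving out the second 18-month library gave 0.19 and 0.020.

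Ifit1, the sensor of RNA that lacks the host's cap methylation, was the 1 gene of the 10 with a difference below 0. Its 18-month values were 54.2, 60.5 and 51.1 TPM, and its 8-month values 57.9, 43.4 and 70.4 TPM, so the 8-month libraries spanned the 18-month ones on both sides. The log2 difference was -0.026 (95% interval -0.43 to 0.38, limma adjusted p = 0.97), and its sign turned with median-of-ratios scaling (0.066), quantile normalization (0.046) and the GC and length correction (0.0024). Of the 31-base sequences in its transcript, 10.8% also occur in other genes, mostly in Ifit1bl2.

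Isg15 (chromosome 4, 156199424 to 156200818, minus strand) had values of 77.2, 103.2 and 79.8 TPM in older cells, next to 78.2, 66.6 and 84.1 TPM in younger ones. The log2 difference was 0.18 (95% interval -0.15 to 0.51, limma adjusted p = 0.65), or 0.047 when the second 18-month library was left out. Of the 31-base sequences in its transcript, 13.1% also occur in other genes. Usp18 (chromosome 6, 121245906 to 121270917, plus strand), the protease that removes ISG15, had 121.6, 172.4 and 132.8 TPM, next to 135.6, 121.3 and 149.4 TPM. Its log2 difference was 0.060 (95% interval -0.28 to 0.40, limma adjusted p = 0.91) and turned to -0.086 without the second 18-month library. In both genes that library was the highest of all 6, and the other 18-month libraries lay within the 8-month range. The exons of Usp18 share 124 bases with Gm44148 on the opposite strand, which was not analysed here, and the kit does not mark the strand. Of the 5 enzymes that join ISG15 to its targets, 0 rose and 0 fell, with a median log2 difference of 0.14, or 0.0059 without the second and 0.31 without the first 18-month library. The activating enzyme gene Uba7 gave 221.0, 294.2 and 237.0 TPM in the older, 190.1, 196.9 and 200.8 TPM in the younger libraries. The ligase gene Herc6 averaged 38.8 ± 2.37 TPM (SD, n = 3) against 32.01 ± 1.36 TPM, and Trim25, lower at 18 months, 30.4 ± 2.80 against 38.4 ± 0.347 TPM. The ages did not overlap in these 3 genes, and the limma adjusted p lay between 0.23 and 0.30. Of the 5, 2 were separate with 18 months higher and 1 with 18 months lower, where 4.48% and 14.2% of all tested genes were.

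Bst2 (chromosome 8, 71534255 to 71537456, minus strand) reached 646.3, 852.2 and 654.8 TPM in the older libraries, beside 680.7, 665.5 and 701.2 TPM in the younger. Apart from the second 18-month library at 852.2 TPM, its values stayed between 646.3 and 701.2 TPM. The log2 difference was 0.061 (95% interval -0.23 to 0.35, limma adjusted p = 0.88) and -0.069 without that library, and it was -0.013 with library weights. Ifi44 (chromosome 3, 151730922 to 151749960, minus strand) gave 19.7, 29.8 and 24.6 TPM, beside 21.4, 20.97 and 26.8 TPM. Its log2 difference was 0.084 (95% interval -0.31 to 0.48, limma adjusted p = 0.88), or -0.056 when the second 18-month library was left out. In both genes the first 18-month library was the lowest of all 6.

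**Figure D3:**
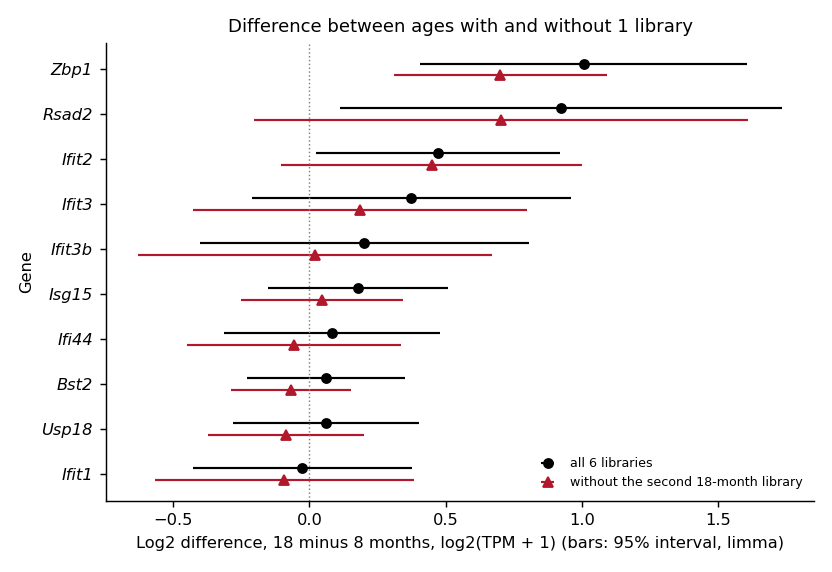
Log2 difference between 18 and 8 months for each gene with its 95% interval from limma, from all 6 libraries (black circles) and without the second 18-month library (red triangles). Leaving that library out moved every point to the left, and the point estimates of Ifi44, Bst2 and Usp18 crossed 0.

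The median log2 difference of the 10 genes went from 0.19 to 0.033 when the second 18-month library was left out. That library was the highest of all 6 libraries in 8 of the 10 genes, where it was highest in 8.23% of tested genes, and the highest of the 3 at 18 months in 9 of 10, where it was so in 18.5% of tested genes. Ifit2 and Ifit1 were the exceptions to the first count and Ifit2 to the second. On the log2 scale its level lay above the mean of the other 18-month libraries in all 10 genes, by 0.065 (Ifit2) to 0.92 (Zbp1), with a median of 0.43, whereas the median over all tested genes was -0.12. Without it 6 of the 10 genes lay above 0, and the median over all tested genes was -0.045. Its summed pan-leukocyte and macrophage markers, at 71.9 and 1943 TPM, were the highest of the 3 at 18 months, while its lymphocyte sum, 29.9 TPM, was the lowest. Of the macrophage markers, Chil3 was at 390.6 TPM against 140.5 TPM in the first 18-month library, and Lyz2 at 1235 against 1287 TPM. By single marker, the second 18-month library was the highest of the 3 in 2 of 6 pan-leukocyte and 6 of 13 tested macrophage markers. It was so in 0 of 10 tested lymphocyte markers. The part of those cells in its values was not tested. Leaving out the second 8-month library gave a median of 0.063, the first 18-month library 0.33 and the third 8-month library 0.35, while the first 8-month library gave 0.16 and the third 18-month library 0.20. Weights estimated across all genes, from how closely each library follows the mean of its age, were 0.65 for the second 18-month library, 0.56 for the first and 3.78 for the third, and between 0.81 and 0.96 at 8 months. With these weights, in which the third 18-month library counts most, the median was 0.17, and 0 of the 10 genes passed, while 94 of all genes did.

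The third 8-month library lay on the other side of the comparison. It was the highest of the 3 at 8 months in all 10 genes, where it was so in 26.4% of tested genes, and it exceeded the mean of the other 8-month libraries by a median of 0.37 on the log2 scale. The excess was 0.85 in Rsad2, 0.79 in Ifit3 and 0.75 in Ifit3b, and 0.059 in Bst2. This is the library with the highest leukocyte and epithelial marker sums, and the part of those cells in the excess was not tested. The first and second 8-month libraries had lower leukocyte sums than all 18-month libraries, at 27.1 and 23.0 TPM for the pan-leukocyte and 763 and 861 TPM for the macrophage markers. Without the third 8-month library all 10 effector genes lay above 0 and their median log2 difference was 0.35. Leaving it out also moved the median of the pan-leukocyte markers from 0.37 to 0.99 and that of the macrophage markers from 0.28 to 0.72. Without both this library and the second 18-month library, a setting chosen after the data were seen, the median was 0.19 with 8 of 10 above 0. In mean centred log2(TPM + 1) over the 10 genes, the 18-month libraries lay at -0.13, 0.47 and 0.15 and the 8-month libraries at -0.31, -0.32 and 0.13, so the first 18-month library lay below the third 8-month library.

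**Figure D4:**
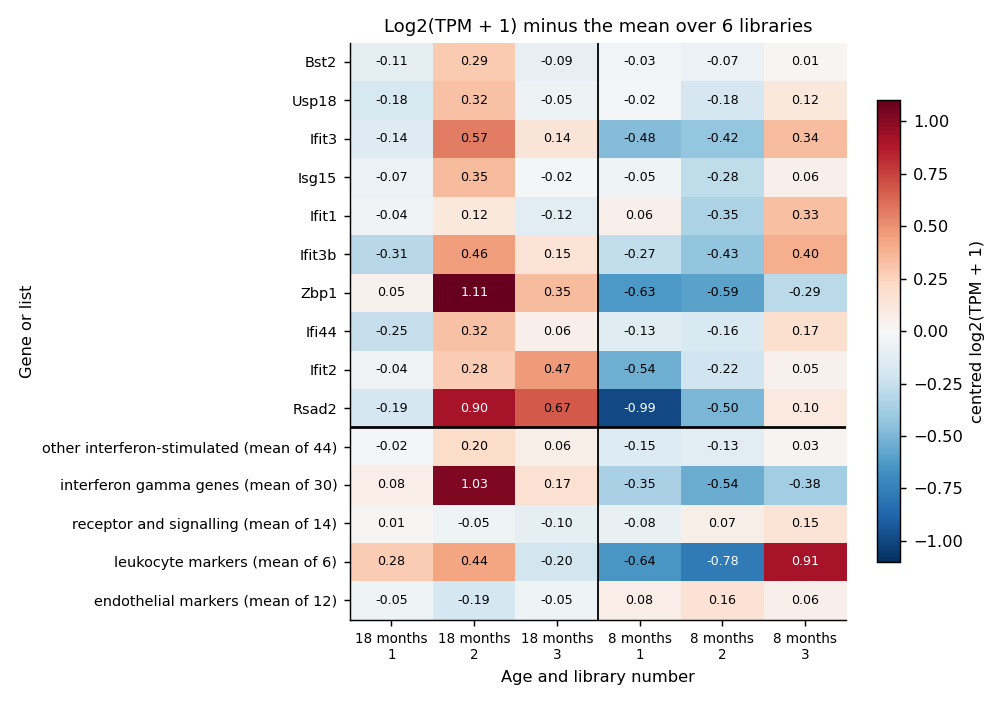
Log2(TPM + 1) minus its mean over the 6 libraries, for the 10 genes (above the line) and as means over the tested genes of 5 lists (below it), with red for above and blue for below the mean. All 10 effector genes are above their mean in the second 18-month library, and all but Zbp1 in the third 8-month library, while the interferon gamma genes have a mean of 1.03 in the former and the leukocyte markers a mean of 0.91 in the latter.

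The rest of the pathway was read from lists of other genes, some of which stand in more than 1 list. Of the 18 type I interferon ligand genes, 14 were listed at 0 in all 6 libraries. The other 4 (Ifnb1, Ifnk, Ifna13 and Ifnz) stayed at or under 0.45 TPM, and Ifnb1 lay above 0 in the first 18-month library alone, at 0.36 TPM. In the receptor and its signalling, 14 of 15 genes were tested, and 0 rose and 0 fell. A difference above 0 was seen in 4, where 33.8% of all tested genes had one. The median was -0.12, against -0.079 over all tested genes. With the GC and length correction it became 0.036, and that over all genes 0.017. The receptor gene Ifnar2 averaged 65.2 ± 6.81 TPM (SD, n = 3) against 84.9 ± 24.7 TPM (limma adjusted p = 0.50). Of the 20 sensors of nucleic acid and adaptors, 17 were tested, 0 rose and 0 fell, and the median was 0.029, with 0.0096 to 0.17 over the alternatives. The ages were separate for 1 gene with 18 months higher and 2 with 18 months lower, against 4.48% and 14.2% of all tested genes. Rnaseh2c, a subunit of the enzyme that cuts RNA in RNA-DNA hybrids, had 50.9, 47.3 and 45.4 TPM in the older libraries, next to 70.003, 78.4 and 68.2 TPM in the younger. Its log2 difference was -0.58 (limma adjusted p = 0.12). The others were the adaptor Mavs, at 49.8 ± 2.35 against 60.9 ± 2.54 TPM, and the kinase gene Tbk1, at 87.0 ± 5.11 against 73.1 ± 3.49 TPM (limma adjusted p = 0.24 and 0.31).

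Of 48 other interferon-stimulated genes, 44 were tested, and 0 rose and 0 fell. Their median log2 difference was 0.15, with 34 above 0 and 10 below, and it was 0.091 without the second and 0.26 without the first 18-month library. The ages were separate for 9 genes with 18 months higher and 2 with 18 months lower, of 44, where 4.48% and 14.2% of all tested genes were. Oas2, which makes the messenger that activates RNase L, had 43.0, 43.7 and 39.3 TPM, compared with 20.02, 19.6 and 26.9 TPM in the younger cells. In this gene the second 18-month library did not stand apart, and the log2 difference was 0.91 with all libraries and 0.88 without it (limma adjusted p = 0.099 with all). Its relative Oas1g had 8.10, 12.7 and 10.1 TPM, compared with 5.23, 3.41 and 6.25 TPM (limma adjusted p = 0.19).

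Genes known to respond strongly to interferon gamma formed the last list. Of its 32 genes, 30 were tested, 0 rose and 0 fell, and the median log2 difference was 0.73, or 0.42 without the second 18-month library. The ages were separate with 18 months higher in 20 of the 30 and with 18 months lower in 0, where 4.48% and 14.2% of all tested genes were. Ubd, which encodes the ubiquitin-like protein FAT10, had 7.54, 19.1 and 6.80 TPM, compared with 0.081, 1.21 and 0.19 TPM (limma adjusted p = 0.079). Cd74, the invariant chain of MHC class II, had 6762, 17910 and 10253 TPM, compared with 3259, 1533 and 3028 TPM (limma adjusted p = 0.13). In these genes the second 18-month library exceeded the other 18-month libraries by a median of 1.03 on the log2 scale, against 0.43 for the 10 effector genes. The third 8-month library exceeded the other 8-month libraries by a median of 0.068, against 0.37. These differences between lists were not tested.

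**Figure D5:**
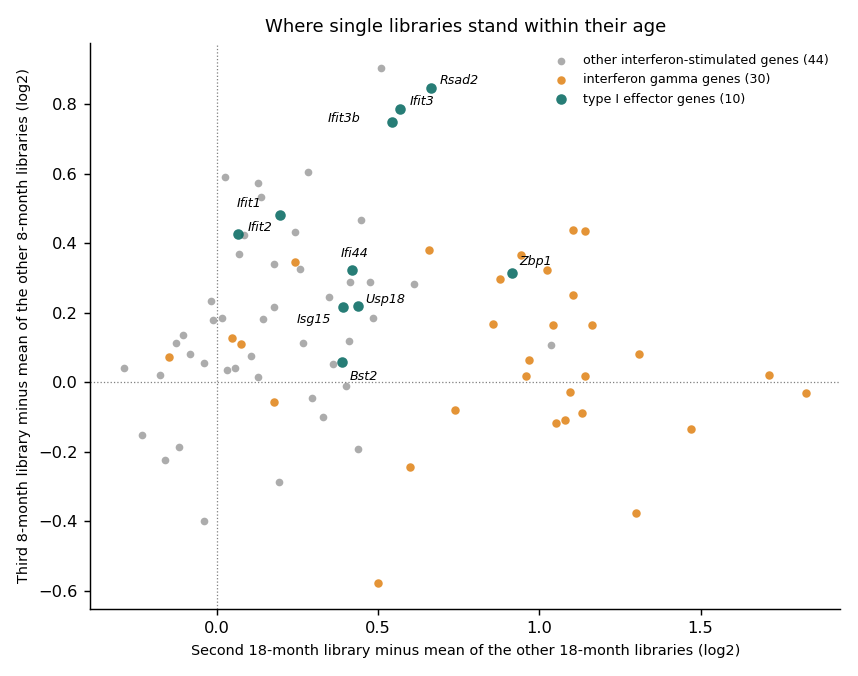
Each point is a tested gene of 3 sets (10 effector genes, 44 other interferon-stimulated genes and 30 interferon gamma genes), with the second 18-month library minus the mean of the other 18-month libraries on the horizontal axis and the third 8-month library minus the mean of the other 8-month libraries on the vertical axis, both in log2(TPM + 1). The 10 effector genes lie above 0 on both axes, while the interferon gamma genes spread to the right with a median of 1.03 and lie near 0 on the vertical axis, with a median of 0.068.

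Across the 6 libraries the 10 genes resembled each other. All 45 pairs had a positive Pearson correlation of log2(TPM + 1), 38 of them above 0.5, with a median of 0.71. The highest was 0.96, between Ifit3b and Ifi44, and the lowest 0.10, between Ifit1 and Ifit2. These are descriptions over 6 libraries that the genes share, and Ifit3 and Ifit3b share sequence as well. Among 9503 other genes whose mean reached 5 TPM, the 6 most like the mean profile of the 10 were Lgals3bp, Oasl2, Adipor2, Xaf1, Tctex1d2 and Rtp4, with r between 0.95 and 0.96. Lgals3bp, Oasl2, Xaf1 and Rtp4 were on the list of other interferon-stimulated genes. Adipor2, an adiponectin receptor, and Tctex1d2, a dynein light chain, were on no list.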

How the data were processed

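RNA of sorted lung endothelial cells was measured in 3 libraries per age. Per the labels' protocols, 10 ng of RNA per library was amplified with a SMARTer low-input kit and read as 100 bp pairs. The deposited values are TPM, made by the authors with kallisto on mm10 per the submitters' processing notes. For the version and transcript set, the sources used here give nothing. The columns sum to between 869315 and 876126 TPM. TPM keep no depth, so depth and counting error are unknown.

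Symbols and positions came from GENCODE M21 on GRCm38 (mm10), which names 24299 of 24520 identifiers. The 12748 genes averaging 1 TPM or more were tested as log2(TPM + 1) in R 4.3.3 with limma 3.58.1 (2-sided moderated test, trended variance, model of age only, Benjamini-Hochberg adjustment over all genes tested, threshold 0.05). Log2 differences on this scale understate the change of low genes. The fit was tested on simulated data for the same comparison and 12748 genes. For true log2 changes of 0.5, 1, 2 and 3, given to 50 genes each, it called 11, 34, 45 and 50, plus 10 unchanged genes. These 200 genes were changed at once, which makes the adjusted threshold easier to reach than in the data, where 3 genes passed. The counts therefore do not give the share of true changes that would be called in the data.

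The members and lists were chosen with earlier results of these data known. All 10 members are named. By a fixed rule, other named genes came from the 4 with the smallest unadjusted p in each list, the 3 highest of each marker list and the 6 most like the members' mean profile. Not all of these are named, since marker lists are given mainly as sums. Cmpk2, Siglech, Xcr1, Flt3, Ly6g, Csf1r, Casp8 and the ligand genes stand outside this rule and were named after their values were seen. Alternatives were 2 pseudocounts, 2 filters, 2 scalings, no trend, weighted libraries, a replicate block, a correction for GC content and length with and without the block, protein-coding genes alone, and each library left out. Leaving out 2 libraries was added after the data were seen. The 2 markers Trac and Ighm were not analysed here. A gene of the receptor and signalling list is not reported here.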

Additional observations from a re-analysis of the deposited data

How the results depend on the processing

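The 0 calls among the 10 genes and the sign of their median log2 difference (0.19, with 0.033 to 0.35 over 19 alternatives) were the same under every alternative run. At an unadjusted p under 0.05, 1 to 4 of the 10 were higher. Over all genes the count of 3 was 0 with no filter on low values, 16 with quantile normalization, 28 when the fit held protein-coding genes only, 94 with library weights, 0 to 2 with 1 library left out and 0 without the second 18-month library and the last 8-month library together. It was 0 with the replicate block, and 0 when GC content and length were corrected in the same blocked fit. The replicate numbers did not pair the libraries: deviations of same-numbered libraries from their age means correlated at -0.012, -0.090 and 0.057, and not every library correlated best with its own number.

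Signs turned in 4 genes, each within its 95% interval. Ifit1 (-0.026) became 0.066 when scaled by median of ratios, 0.046 under quantile normalization, 0.0024 with the GC and length correction with or without the block, and 0.069 without both libraries named above, with -0.21 to 0.13 over single libraries left out. Usp18 (0.060) ran from -0.086 to 0.16 and Ifi44 (0.084) from -0.056 to 0.23 with 1 library left out, and Usp18 was -0.013 without both. Bst2 (0.061) was -0.013 with library weights, -0.049 without both and -0.069 to 0.13 with 1 left out. The cause was not tested. Unknown depth leaves the counting error of low genes such as Rsad2 and the ligand genes unmeasured.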

Other observations

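The same motifs were counted in the other lists. The ISRE core occurred in the promoter windows of 15 of 35 other interferon-stimulated genes with a window (42.9%) and of 11 of 21 interferon gamma genes (52.4%), against 3.76% of the 9732 tested genes with a window. The GAS core occurred in 6 of 35 (17.1%) and 8 of 21 (38.1%), against 8.48%. These are descriptions of letters in windows of 300 bases, with no test.

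Within the interferon-stimulated list, 2 of 44 genes had separate ages with 18 months lower, Trim25 and Ifi209, a smaller share than the 14.2% of all tested genes. Both shares are from TPM as deposited, and the balance of higher and lower genes depended on the scaling. Ifi209, of the family of DNA-binding interferon-induced proteins, had 11.3, 11.6 and 12.2 TPM in the older and 16.03, 13.97 and 17.8 TPM in the younger libraries, with a log2 difference of -0.41 (limma adjusted p = 0.23). The suppressor of cytokine signalling gene Socs3 had 64.3, 27.98 and 33.1 TPM, compared with 55.3, 79.3 and 58.9 TPM, a log2 difference of -0.69 (limma adjusted p = 0.36), with the second 18-month library the lowest of all 6.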
